A study of Mus musculus with 6 samples.

Results

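The genes described here are 42 named genes of the endoplasmic reticulum (ER), of 23159 in the deposited table. They were chosen by name, with earlier results of these data known. They comprise 14 ER folding genes, 8 stress sensors and transcription factors, 7 genes of ER-associated degradation (ERAD), 3 subunits of the Sec61 translocon and 10 genes of the COPII coat. Their levels were compared between label-retaining chondrocytes (LRCs, H2B-GFP high) and non-LRCs (H2B-GFP mid to low) of the mouse growth plate in 3 experiments, each with 1 library of either population, so that the 6 libraries formed 3 pairs. All cells came from Col2-Q mice, homozygous for *Col2a1-tTA* (at *Peli2*), *TRE-H2B-GFP* (at *Col1a1*), *Col2a1-creER* and *R26R-tdTomato*. In these mice *Col2a1* promoters drive both the transactivator and creER, and doxycycline stops new synthesis of the histone label. Both populations received doxycycline from P21 to P49 and tamoxifen at P46 and P47, were taken at P49, and were sorted as tdTomato-positive, CD45-negative cells from femurs and tibias of several littermates pooled in each experiment. About 10000 cells entered each LRC library and about 50000 each non-LRC library.

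Proteins bound for the extracellular matrix enter the ER through the Sec61 channel and are folded there by chaperones and disulfide isomerases. COPII-coated vesicles then carry them to the Golgi, and misfolded chains are returned to the cytosol and degraded. When unfolded protein accumulates, the sensors IRE1 (*Ern1*), PERK (*Eif2ak3*) and ATF6 start the unfolded protein response, in which XBP1, ATF4 and ATF6 turn on genes of folding and degradation. Chondrocytes secrete large amounts of collagen and aggrecan, and mutations of several of these genes in humans or mice disturb cartilage and bone.

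ATF6 and XBP1 act through the ER stress response element (ERSE), here spelled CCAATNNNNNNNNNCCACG and searched on both strands of RefSeq promoter windows (GRCm38.p6, 250 bases before to 50 bases after each transcript start). Windows existed for 36 of the 42 genes. The element lay in the windows of 9 of them (25.0%), against 0.137% of all 27025 gene symbols with a window. These were the folding genes *Hspa5*, *Hsp90b1*, *Calr*, *Canx*, *Pdia6*, *Dnajc3* and *Creld2* and the ERAD genes *Syvn1* and *Derl3*. The elements of the most abundant folding genes are shown because the folding class is described first below. They are read along the strand of the gene with 10 bases on either side, and the capitals mark both ends of the element. Their positions are chr2:34772015-34772053 (plus strand) for *Hspa5*, chr10:86705628-86705666 and chr10:86705523-86705561 (minus strand) for the distal and proximal elements of *Hsp90b1*, chr8:84847065-84847103 (minus) for *Calr*, chr11:50325790-50325828 (minus) for *Canx* and chr12:17266481-17266519 (plus) for *Pdia6*. *Herpud1*, an ERAD gene, held the related ERSE-II (ATTGGNCCACG, in 0.0444% of all symbols) at chr8:94386367-94386397 (plus), and *Dnajb11* held one after its start.
Hspa5: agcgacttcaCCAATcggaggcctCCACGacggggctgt
Hsp90b1 distal: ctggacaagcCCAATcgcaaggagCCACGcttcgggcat
Hsp90b1 proximal: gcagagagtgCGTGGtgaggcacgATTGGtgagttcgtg
Calr: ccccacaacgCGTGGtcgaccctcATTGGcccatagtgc
Canx: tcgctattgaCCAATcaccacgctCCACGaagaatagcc
Pdia6: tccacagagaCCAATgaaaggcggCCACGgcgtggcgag
Herpud1: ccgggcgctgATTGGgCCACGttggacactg

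In *Hsp90b1* (proximal) and *Calr* the element was on the opposite strand, so its ends read CGTGG and ATTGG. Hits of different motifs overlapped in 0 cases. The UPRE core TGACGTGG, another XBP1 and ATF6 site, was in 0.714% of all symbols, and in *Sec24d* before and in *Sec23a* after the start. The amino acid response element TGATGNAAT, bound by ATF4 and CHOP, was in 1.08% of all symbols and in 0 of the 36 genes. A match describes these letters only.

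Most folding and translocon genes had lower levels in LRCs, while the stress sensors, ERAD genes and COPII genes were divided. Levels are TMM-normalized counts per 1000000 counts of a library (CPM), and fold changes are log2 of LRC over non-LRC from edgeR's quasi-likelihood test with the experiment as a block. Of the 42 genes, 41 had enough counts to be tested, and 0 of them had an adjusted p below 0.05, against 1.28% of the 13728 genes tested (176 genes). The smallest adjusted p by edgeR was 0.0735 (*Sec61g*). At an unadjusted p below 0.05, 13 genes were lower in LRCs (9.53% of all genes tested) and 3 were higher (8.89%). With DESeq2, which like the study's own analysis paired the libraries of an experiment, 8 genes fell and 1 rose at an adjusted p below 0.05, against 6.15% and 6.16% of all genes with an adjusted p. Those that fell were *Hsp90b1*, *Pdia6*, *Sdf2l1*, *Manf*, *Ddit3*, *Sec61b*, *Sec61g* and *Sec13*, and the one that rose was *Creb3l2*. With 1 experiment left out, edgeR called 0 genes without experiment 1, 5 without experiment 2 (*Manf*, *Ddit3*, *Sec61b*, *Sec61g* and *Sec13*) and 1 without experiment 3 (*Sec61g*), all lower in LRCs. Of all genes fitted, 0.254%, 5.37% and 1.59% were called in the same runs.

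Directions were also counted within experiments. In all 3 experiments 17 genes were lower in LRCs (26.1% of all genes tested) and 6 were higher (20.4%), and 18 differed in direction. Every LRC library lay below every non-LRC library for 7 genes (10.3% of all genes tested) and above for 0 (8.41%). The median log2 fold change was −0.31 over the 41 genes and −0.10 over all genes tested. By class it was −0.38 for ER folding, −1.07 for the translocon, −0.12 for COPII, −0.06 for sensors and factors and 0.08 for ERAD.

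**Figure D1:**
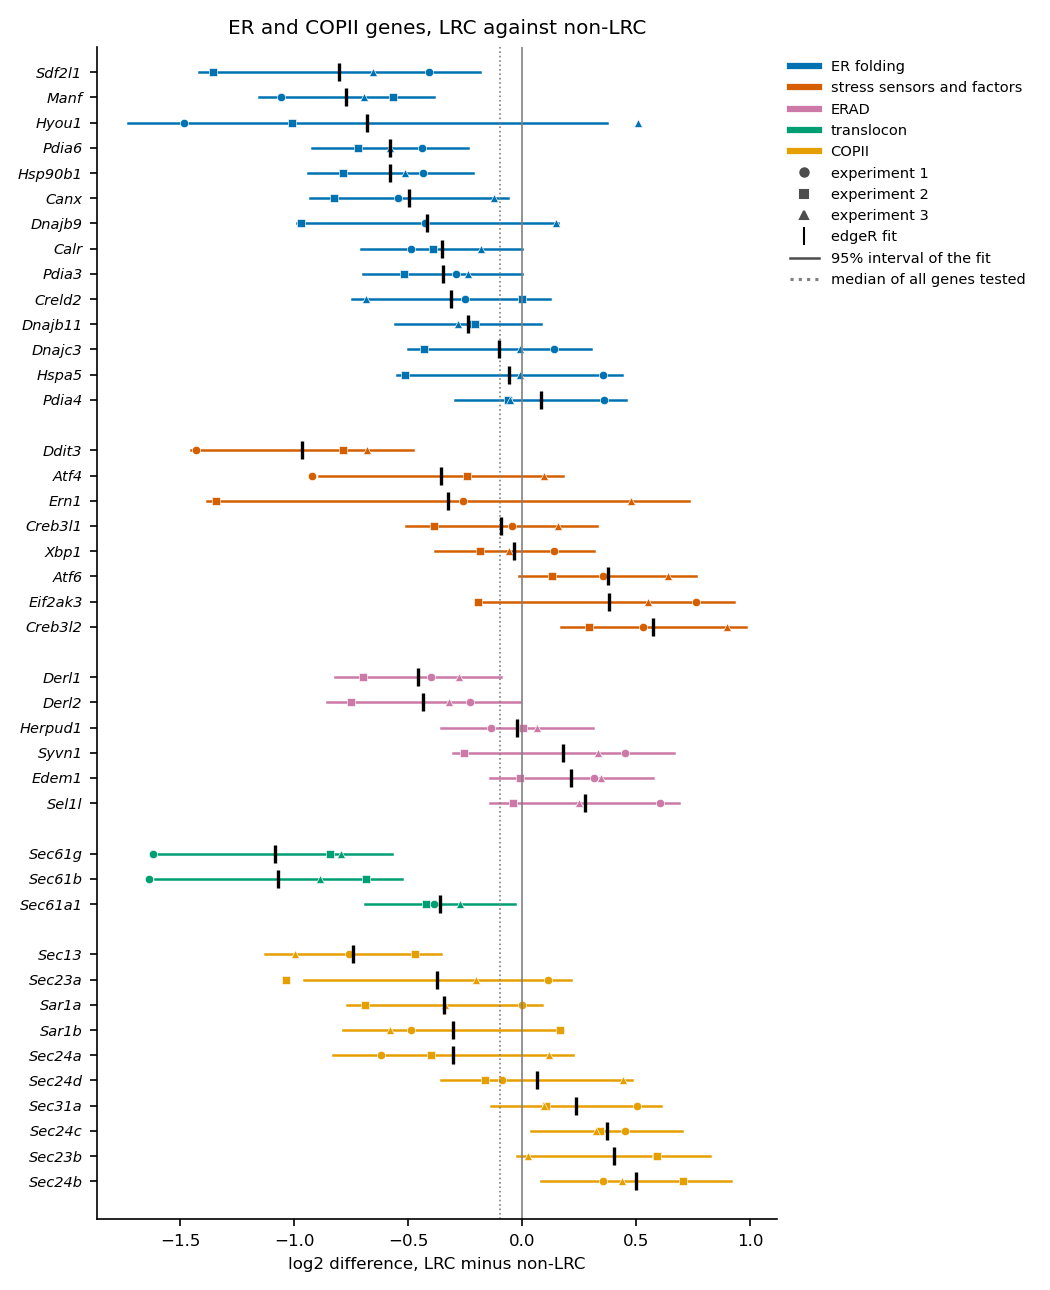
Log2 difference between LRCs and non-LRCs (x axis) of the 41 genes tested, by class and by fitted value. Symbols are the 3 experiments (log2 CPM, prior count 2), the black bar is the edgeR log2 fold change, the line its 95% interval, and the dotted line the median of all genes tested (−0.10). Of the 14 folding genes 13 lie left of 0, and the COPII genes are split 5 to 5.

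Libraries held 18943789 to 129559872 counts. The LRC library of experiment 2 was the shallowest, with 1731 of the genes tested at 0 counts, against 4 to 365 in the others. The chondrocyte identity of the cells was visible in both populations, in which 12 markers such as *Col2a1* and *Acan* took 10.01% to 24.4% of the counts. Of these 12 markers 10 were lower in LRCs in all 3 experiments (median log2 fold change of the 12 −0.50). For this and the marker counts below, 26.1% of all genes tested were lower and 20.4% higher in all 3 experiments. *Sox9* was higher in all 3 (0.46), and *Col2a1* differed in direction between experiments (−0.18). Markers of superficial articular or synovial cells had a summed level of 3170 ± 807 CPM in LRCs against 564 ± 182 CPM in non-LRCs (SD, n = 3), with 7 of 8 higher in all 3 experiments. Genes of hypertrophic chondrocytes summed to 1633 ± 599 and 2294 ± 998 CPM, with 6 of 10 lower in LRCs in all 3 experiments and 1 higher (median log2 fold change −1.09). Osteoblast markers summed to 2036 ± 946 and 1509 ± 599 CPM, with 2 of the 6 tested lower and 2 higher, and 4 of 5 proliferation genes were lower in LRCs in all 3 experiments. Leukocyte markers summed to at most 8.26 CPM, with *Ptprc* at 0 in 5 of the 6 libraries, muscle markers to at most 43.0 CPM and erythroid markers to at most 1.37 CPM. The part of these populations in the results below was not tested, and in sorted bulk samples less RNA per cell cannot be told apart from fewer cells of a type. The p-values of the paired tests set the difference within experiments against a spread between the 3 experiments, each of pooled animals. Both edgeR and DESeq2 moderate that spread with values of other genes, so it is not the gene's own spread alone.

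Among the 14 folding genes, 9 were lower in LRCs in all 3 experiments (26.1% of all genes tested) and 0 were higher (20.4%). *Hspa5*, the ER Hsp70 (BiP) that binds unfolded chains and holds the sensors inactive, was the most abundant of them. Its level was 2387, 2121 and 2781 CPM in the LRC libraries of experiments 1 to 3 and 1866, 3031 and 2796 CPM in the non-LRC libraries. The groups overlapped, with LRCs higher in experiment 1 and lower in experiment 2. The log2 fold change was −0.06 (SE 0.20, 95% interval −0.55 to 0.44, adjusted p by edgeR 0.908), and it was −0.27, 0.17 and −0.06 without experiment 1, 2 or 3. *Pdia4* and *Dnajc3*, a disulfide isomerase and a BiP co-chaperone, likewise had no common direction, with log2 fold changes of 0.08 and −0.10.

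*Hsp90b1*, the ER Hsp90 (chr10:86690209-86705509), had 862, 855 and 1043 CPM in LRCs and 1165, 1473 and 1491 CPM in non-LRCs. All LRC libraries lay below all non-LRC libraries. Its log2 fold change was −0.58 (SE 0.15), with an adjusted p of 0.122 by edgeR and 0.00316 by DESeq2. *Pdia6*, a disulfide isomerase (chr12:17266545-17284770), had 425, 527 and 592 CPM in LRCs against 576, 867 and 885 CPM in non-LRCs, a log2 fold change of −0.58. It was lower within each experiment, although the groups overlapped between 576 and 592 CPM.

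The calnexin cycle holds glycoproteins until they are folded. *Canx* had 485, 398 and 569 CPM in LRCs and 707, 706 and 619 CPM in non-LRCs, and *Pdia3*, the isomerase of the same cycle, had 663 to 755 CPM and 810.3 to 970.5 CPM. For both genes the groups did not overlap, with log2 fold changes of −0.50 and −0.35. *Calr* had 745, 1056 and 1028 CPM in LRCs and 1043, 1386 and 1165 CPM in non-LRCs (a log2 fold change of −0.35). Adjusted p-values of these 3 genes by edgeR were between 0.220 and 0.271.

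*Sdf2l1* and *Manf*, small proteins that act with BiP, had the lowest log2 fold changes of the class among genes with 1 direction. *Manf* (chr9:106838312-106891979) had 73.7, 197 and 106 CPM in LRCs and 153, 291 and 171 CPM in non-LRCs. Within each experiment LRCs were lower, by 1.06, 0.56 and 0.69 on the log2 scale, while the groups overlapped because experiment 2 was high in both. Its log2 fold change was −0.77 (SE 0.16), with an adjusted p of 0.0808 by edgeR and 8.2e-04 by DESeq2. *Sdf2l1* had 15.6, 19.1 and 22.6 CPM in LRCs and 20.8, 48.9 and 35.5 CPM in non-LRCs (a log2 fold change of −0.80, adjusted p by edgeR 0.177). *Hyou1*, the nucleotide exchange factor of BiP, was low and uneven, at 10.1 to 13.9 CPM in LRCs and 8.23 to 38.8 CPM in non-LRCs. Of the co-chaperones, *Dnajb11* was lower within each experiment by 0.21 to 0.28 on the log2 scale, and *Dnajb9* was lower in experiments 1 and 2 and higher in experiment 3. *Creld2*, a disulfide isomerase-like protein, was lower in experiments 1 and 3 by 0.25 and 0.68 and nearly equal in experiment 2, at 128 and 129 CPM.

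**Figure D2:**
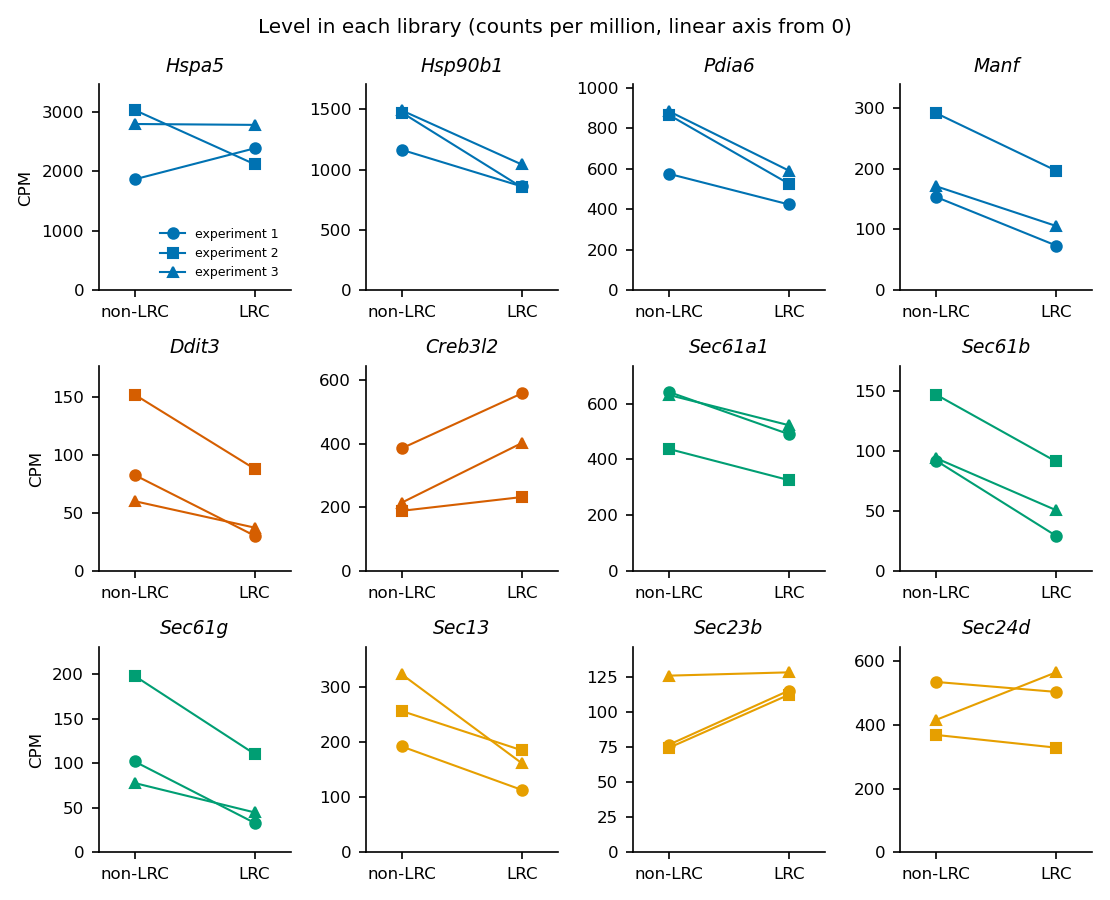
CPM (y axis, linear from 0) of 12 genes in each library, with a line joining the non-LRC and LRC libraries of the same experiment. Lines of *Hsp90b1*, *Pdia6*, *Manf*, *Ddit3*, the Sec61 genes and *Sec13* descend in all 3 experiments, those of *Creb3l2* and *Sec23b* ascend, and those of *Hspa5* and *Sec24d* cross.

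Of the 9 genes with an ERSE in their window, the 8 that were tested had a median log2 fold change of −0.33 (5 lower in all 3 experiments), and the 27 with a window and no ERSE −0.30 (9 lower, 5 higher). Within the folding class the medians were −0.35 for the 7 genes with the element and −0.35 for the 5 without.

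The sensors and factors held the 1 gene that rose by DESeq2 and 1 of those that fell. *Ddit3*, which encodes the pro-apoptotic factor CHOP downstream of ATF4 (chr10:127290774-127296288), had 30.7, 88.1 and 37.6 CPM in LRCs and 82.8, 152 and 60.3 CPM in non-LRCs. Each experiment had the lower level in LRCs, with the highest level of either population in experiment 2. The log2 fold change was −0.97 (SE 0.20), with an adjusted p of 0.0814 by edgeR and 8.2e-04 by DESeq2. *Atf4* itself had 350, 676 and 405 CPM in LRCs and 663, 799 and 380 CPM in non-LRCs. Its direction differed between experiments (log2 fold change −0.36, adjusted p by edgeR 0.444).

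*Creb3l2* encodes a membrane-bound factor that turns on *Sec23a* in chondrocytes, and *Creb3l1* its relative in bone. *Creb3l2* (chr6:37327255-37442146) had 557, 232 and 401 CPM in LRCs and 385, 190 and 215 CPM in non-LRCs. LRCs were higher in each experiment while the groups overlapped, and the log2 fold change was 0.58 (SE 0.17), with an adjusted p of 0.151 by edgeR and 0.0143 by DESeq2. *Creb3l1* had 75.8, 64.4 and 58.6 CPM in LRCs and 78.1, 84.3 and 52.6 CPM in non-LRCs, a log2 fold change of −0.09.

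*Xbp1* had 480.2, 503 and 513 CPM in LRCs and 436, 572 and 533 CPM in non-LRCs. Its log2 fold change was −0.03 (95% interval −0.38 to 0.31, adjusted p by edgeR 0.921), and spliced and unspliced forms were not counted apart. *Atf6* was higher in LRCs in all 3 experiments, at 165, 95.02 and 132 CPM against 129, 86.8 and 84.7 CPM (log2 fold change 0.38, adjusted p by edgeR 0.283). *Eif2ak3* had a fitted value of 0.38 but was lower in experiment 2, and *Ern1* was detected at 0.765 to 19.6 CPM with no common direction. Beside these values, a list of 13 immediate early and heat shock genes that respond to tissue dissociation had a median log2 fold change of 0.50. Of these genes, 7 were higher and 1 lower in LRCs in all 3 experiments, against 20.4% and 26.1% of all genes tested. The summed level of the list was 2558, 2572 and 3980 CPM in LRCs and 2008, 1451 and 3155 CPM in non-LRCs. The part of the list in the values of the stress genes was not tested.

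Of the 6 ERAD genes tested, 2 were lower in LRCs in all 3 experiments (26.1% of all genes tested) and 0 were higher (20.4%). Both were derlins, which move misfolded proteins out of the ER. *Derl1* had 173, 160 and 200 CPM in LRCs and 228, 259 and 242 CPM in non-LRCs. Its groups did not overlap (log2 fold change −0.46, SE 0.15, adjusted p by edgeR 0.188). *Derl2* was lower in all 3 experiments, at 44.9 to 66.3 CPM against 52.7 to 85.5 CPM (log2 fold change −0.43). *Derl3* was at the limit of detection, with 26, 0 and 10 counts in the LRC libraries against 48, 0 and 10 in their partners, and was not tested. In the shallowest library its 0 counts allow a level of up to 0.143 CPM (3 counts, for counting error only).

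The ubiquitin ligase *Syvn1* (HRD1), its partner *Sel1l* and the lectin *Edem1* had log2 fold changes of 0.18, 0.27 and 0.22. Each was lower in LRCs in experiment 2 and higher in the other two. *Herpud1*, which scaffolds the ligase, had 552, 754 and 602 CPM in LRCs and 607, 753 and 575 CPM in non-LRCs (a log2 fold change of −0.02, 95% interval −0.36 to 0.31).

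All 3 subunits of the translocon were lower in LRCs in all 3 experiments (26.1% of all genes tested). *Sec61b* (chr4:47474658-47483242) had 29.6, 91.4 and 50.9 CPM in LRCs and 92.1, 147 and 94.1 CPM in non-LRCs. The groups did not overlap but lay close, at 91.4 and 92.1 CPM. *Sec61g* (chr11:16500530-16508484) had 33.2, 111 and 44.9 CPM in LRCs and 102, 198 and 77.9 CPM in non-LRCs. Both small subunits were highest in experiment 2 in either population. Their log2 fold changes were −1.07 (SE 0.22, adjusted p by edgeR 0.0818) and −1.08 (SE 0.21, adjusted p by edgeR 0.0735), and those by DESeq2 had adjusted p-values of 5.6e-04 and 1.9e-04.

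The pore subunit *Sec61a1* (chr6:88503579-88518905) had 490.4, 326 and 522 CPM in LRCs and 641, 437 and 630.5 CPM in non-LRCs. Its log2 fold change was −0.36 (SE 0.13, adjusted p by edgeR 0.235). Unlike the small subunits it was lowest in experiment 2 in either population.

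Transcript length moved with these values. Across the 41 genes the log2 fold change had a Pearson r of 0.68 with log2 transcript length, and across 13566 genes tested r was 0.13, as a description over genes of the same libraries. Genes with transcripts under 1 kb had a median log2 fold change of −0.52 over all genes (887 genes) and −1.07 over the 3 members in that range, *Sec61b*, *Sec61g* and *Ddit3*. From 1 to 2 kb the medians were −0.24 over all genes and −0.31 over 7 members, from 2 to 4 kb −0.07 and −0.35 (18 members), and above 4 kb 0.07 and 0.24 (13 members). With length and GC content as a correction in the same paired fit, an alternative added after the values were seen, *Sec61b* had −0.82, *Sec61g* −0.83, *Ddit3* −0.80, *Manf* −0.74, *Hsp90b1* −0.42 and *Creb3l2* 0.34. Several positive values were lower with it, with *Sec24b* at 0.30, *Sec24c* at 0.17, *Sec31a* at 0.04, *Atf6* at 0.25, *Eif2ak3* at 0.19, *Sel1l* at 0.11, *Edem1* at 0.10 and *Syvn1* at −0.01, and *Sar1b* turned from −0.30 to 0.11. The class medians were then −0.28 for folding, −0.82 for the translocon and −0.02 for COPII, and edgeR called 0 of the 41 genes. The corrected fold changes of the 41 genes still had a Pearson r of 0.48 with log2 transcript length.

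**Figure D3:**
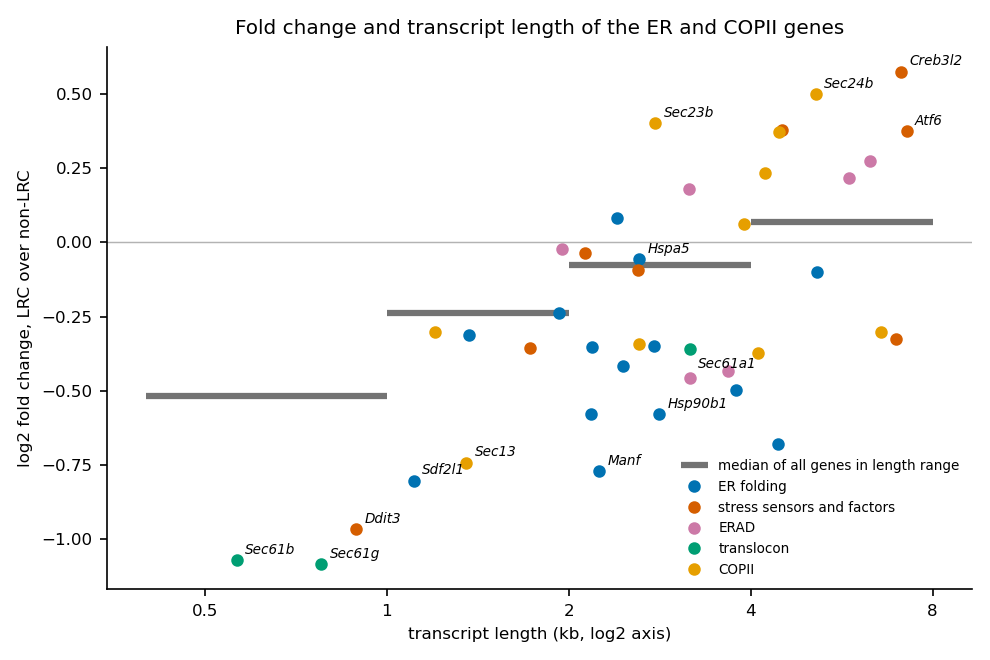
Log2 fold change (y axis) against transcript length (x axis, kb, log2 scale) of the 41 genes, coloured by class. Grey bars are medians of all genes tested in 4 length ranges, from −0.52 under 1 kb to 0.07 above 4 kb, and the shortest genes, *Sec61b*, *Sec61g* and *Ddit3*, lie below their bar.

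Of the 10 COPII genes, 2 were lower in LRCs in all 3 experiments (26.1% of all genes tested) and 4 were higher (20.4%). *Sec13* (chr6:113728062-113740743), a subunit of the outer cage that is also part of the nuclear pore, had 114, 186 and 162 CPM in LRCs and 192, 257 and 324 CPM in non-LRCs. The groups did not overlap. Its log2 fold change was −0.74 (SE 0.16), with an adjusted p of 0.0854 by edgeR and 0.00155 by DESeq2. Its partner in the cage, *Sec31a*, had 538, 356 and 517 CPM in LRCs and 379, 331 and 483 CPM in non-LRCs, a log2 fold change of 0.24 (adjusted p by edgeR 0.467).

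*Sec23a* and *Sec23b* are alternative inner coat subunits, and loss of *Sec23a* function in humans impairs skull ossification. *Sec23b* (chr2:144556229-144590749) had 115, 112 and 128 CPM in LRCs and 76.8, 74.6 and 126 CPM in non-LRCs. The difference was 0.59 in experiments 1 and 2 and 0.03 in experiment 3 on the log2 scale (log2 fold change 0.40, adjusted p by edgeR 0.291). *Sec23a* had 361, 134 and 407 CPM in LRCs and 333, 275 and 468 CPM in non-LRCs, with the LRC library of experiment 2 far below the others (log2 fold change −0.37, adjusted p by edgeR 0.465).

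The *Sec24* genes encode the cargo-binding subunits. *Sec24d*, which takes part in collagen export, made up 70.0%, 71.5% and 76.7% of the summed CPM per kb of the 4 *Sec24* genes in LRCs and 75.4%, 77.4% and 75.1% in non-LRCs. Its level was 503, 328 and 564 CPM in LRCs and 534, 368 and 415 CPM in non-LRCs (a log2 fold change of 0.06, 95% interval −0.36 to 0.48). *Sec24b* was higher in LRCs in all 3 experiments, at 67.3, 52.0 and 43.3 CPM against 52.6, 31.9 and 31.9 CPM. The same held for *Sec24c*, at 168, 81.6 and 138 CPM against 123, 64.4 and 109.9 CPM. Their log2 fold changes were 0.50 and 0.37, with adjusted p-values by edgeR of 0.206 and 0.227, and they were 0.30 and 0.17 with the correction for length and GC content. *Sec24a* was low (28.7 to 45.0 CPM) and differed in direction between experiments.

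The GTPases that start coat assembly were measured at 367 to 656 CPM (*Sar1a*) and 40.7 to 108 CPM (*Sar1b*). *Sar1a* had 534.7, 367 and 519 CPM in LRCs and 535.0, 591 and 656 CPM in non-LRCs. Although its groups did not overlap, the libraries of experiment 1 were nearly equal (log2 fold change −0.34, adjusted p by edgeR 0.364). *Sar1b*, mutated in a disorder of lipid secretion, had 40.7, 108 and 51.5 CPM in LRCs and 57.1, 96.6 and 76.8 CPM in non-LRCs (a log2 fold change of −0.30, adjusted p by edgeR 0.471).

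Ratios of partners within a library do not depend on the scaling between libraries. The log2 ratio of *Hsp90b1* to *Hspa5* (CPM per kb) was −1.51 ± 0.08 in LRCs and −0.99 ± 0.18 in non-LRCs (SD, n = 3), lower in LRCs by 0.79, 0.27 and 0.51 in the 3 experiments. The ratio of *Creb3l2* to *Creb3l1* was higher in LRCs by 0.58, 0.68 and 0.74. For *Sec31a* to *Sec13* LRCs were higher by 1.26, 0.57 and 1.09, and for *Sec61a1* to *Sec61b* by 1.25, 0.26 and 0.62. These last ratios, and that of *Creb3l2* (7.08 kb) to *Creb3l1* (2.60 kb), each set a longer transcript against a shorter one.

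For *Sec23a* to *Sec23b* LRCs were lower by 0.47, 1.63 and 0.23, and the size rested on the LRC library of experiment 2. The ratio of *Sar1a* to *Sar1b* was higher in LRCs in experiments 1 and 3, by 0.49 and 0.24, and lower in experiment 2. With 3 pairs, the exact two-sided test over sign changes cannot give a p below 0.25, and the ratios are given as values.

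**Figure D4:**
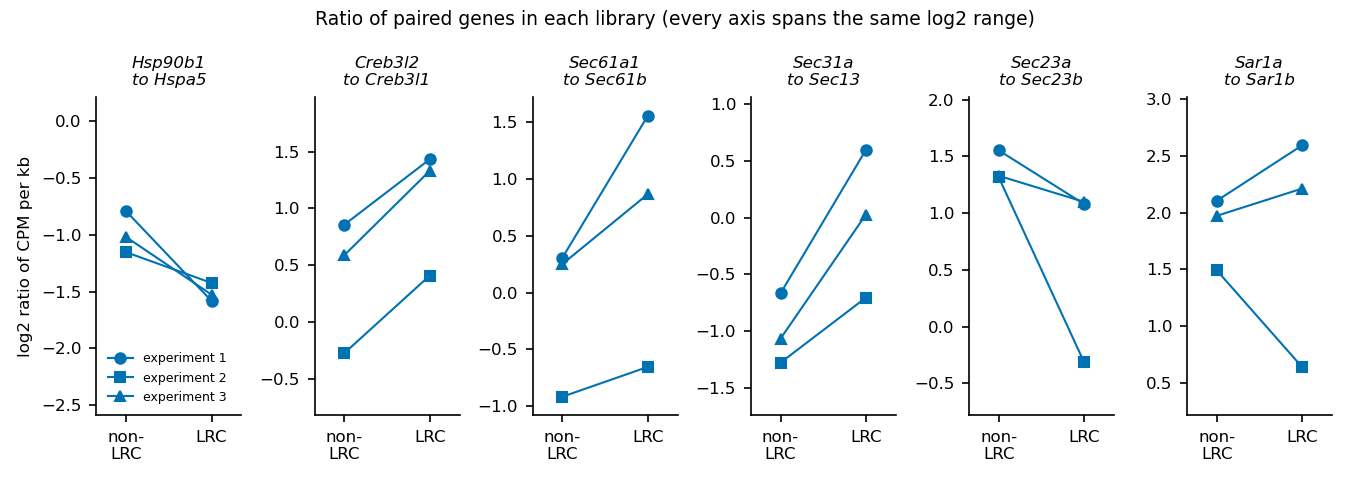
Log2 ratio of CPM per kb (y axis) of 6 pairs of genes in each library, joined by experiment. The first 5 pairs move in 1 direction in all 3 experiments, and *Sar1a* to *Sar1b* does not.

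Other genes of the secretory pathway, listed together with 21 targets and regulators of stress responses, gave the context of these classes. The stress response group includes *Psat1* and *Slc7a11*, and all are counted here as other secretory genes. This list was written with earlier results of these data known, so its counts are a description and not independent support. Of 131 such genes in the table, all tested, 5 fell and 0 rose at an adjusted p below 0.05 by edgeR, where 0.379% of all genes tested fell. At an unadjusted p below 0.05 by edgeR, 55 were lower and 4 higher, against 9.53% and 8.89% of all genes tested. By DESeq2 49 fell and 1 rose at an adjusted p below 0.05, against 6.15% and 6.16% of all genes with an adjusted p. The median log2 fold change of the 131 genes was −0.39. In all 3 experiments 73 were lower and 10 higher in LRCs, against 26.1% and 20.4% of all genes tested. Those that fell by edgeR were *Ostc* of the oligosaccharyltransferase (log2 fold change −1.53), the prolyl isomerase *Fkbp11* (−1.47), the signal peptidase subunit *Spcs1* (−0.99), the serine synthesis enzyme *Psat1* (−1.74) and the retrieval receptor *Kdelr3* (−1.03), with adjusted p-values between 0.0359 and 0.0484. With the correction for length and GC content in edgeR, *Fkbp11* and *Psat1* still passed, while *Ostc*, *Kdelr3* and *Spcs1* had adjusted p-values of 0.0758, 0.0644 and 0.212, and the fold change of *Spcs1* was −0.55.

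Among the 7 groups of these genes, the oligosaccharyltransferase and the translocation group had the lowest medians. *Ssr4*, of the translocon-associated complex, had 60.6, 141 and 91.4 CPM in LRCs and 181, 256 and 168 CPM in non-LRCs (adjusted p by edgeR 0.0612). All 11 oligosaccharyltransferase genes had negative fold changes, 10 of them in all 3 experiments (median −0.61, and −0.62 with the correction for length and GC content). The 21 genes of translocation and signal peptidase had a median of −0.61, which was −0.34 with that correction. The 14 further ERAD genes had a median of 0.10. In all 3 experiments 4 of them were higher and 2 lower, against 20.4% and 26.1% of all genes tested. The ERAD class above had 0 higher and 2 lower. Accessory genes and cargo receptors of COPII (28 genes) had a median of −0.41 and the COPI coat (10 genes) −0.29. For the 21 stress response targets and regulators it was −0.38. In each group the gene with the largest difference in 1 direction was lower in LRCs, among them *Tmed9* (−1.16), *Copz2* (−0.84), *Edem2* (−0.93) and *Slc7a11* (−2.37), with adjusted p-values by edgeR of 0.0540 to 0.405. *Slc7a11*, of the stress response group, was at 1 count in the shallowest library and its fitted value is uncertain (SE 1.32).

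**Figure D5:**
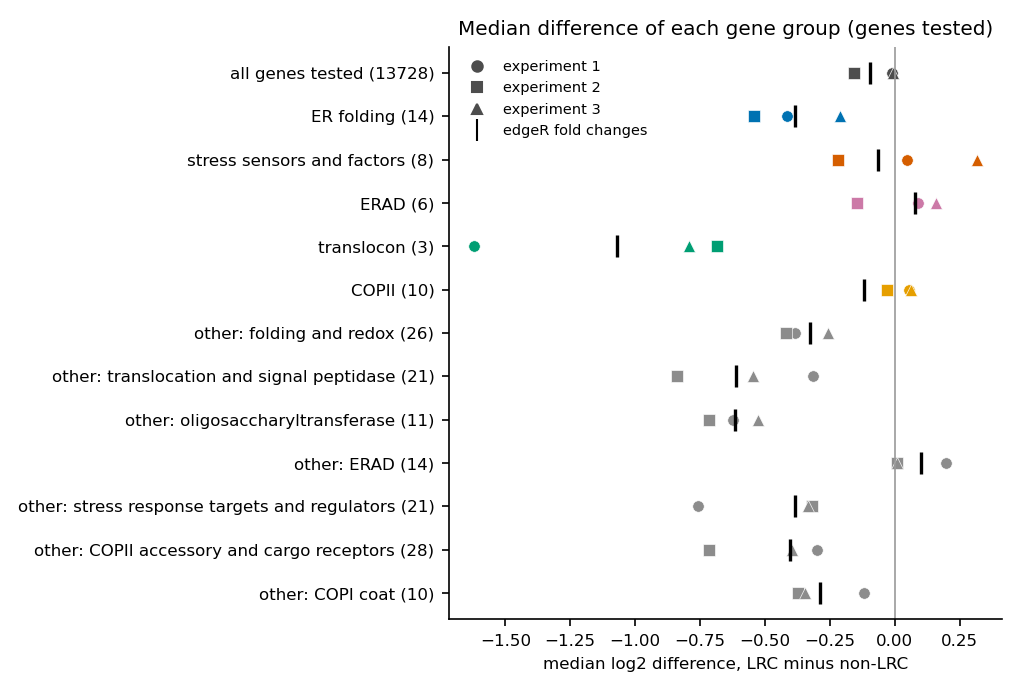
Median log2 difference (x axis) over the genes of each group, by experiment (symbols) and over edgeR fold changes (black bars), with the number of genes tested in brackets. The translocon and the 7 other secretory groups are shown beside the median of all genes tested (−0.10), and the ERAD groups lie at 0.08 and 0.10.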

How the data were processed

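RNA of 6 libraries was amplified with a SMART-based kit and sequenced as single-end reads. The submitters' processing notes name TopHat2 2.0.13, Bowtie2 2.2.1, HTSeq and mm10 (GRCm38), and the methods state that non-ambiguous reads were counted per gene. The gene annotation and strand setting are not given in the sources used here, so overlapping genes are uncertain. The authors deposited raw counts of reads per gene, which were used, and counts divided by size factors and rlog values, which were not used. Groups and experiment numbers came from the sample labels.

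The main test was that of edgeR 4.0.16 in R 4.3.3 (filterByExpr, minimum count 10 and total 15, TMM, block for the experiment, quasi-likelihood test, Benjamini-Hochberg adjustment over all genes, threshold 0.05). Log2 CPM used a prior count of 2. Alternatives included DESeq2 1.42.0 and limma-voom (limma 3.58.1). The block follows the study's paired design. Deviations from the group means correlated with r = 0.197, 0.288 and 0.336 in experiments 1 to 3. The fits were tested on simulated data. The genes and lists were chosen with earlier results of these data known. Named were genes with an adjusted p below 0.05, the 2 largest in 1 direction in each class, and 14 genes by name. Other members were described after their values were seen. Of the 42 genes, all matched GENCODE vM21 (GRCm38) for position and for the length of 1 APPRIS principal transcript, whose choice matters for genes with several, such as *Manf* and *Sec61g*.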

Additional observations from a re-analysis of the deposited data

How the results depend on the processing

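The number of the 41 genes called by edgeR with the replicate block (0) was 0 without the replicate block, with DESeq2 size factors, with no filter on low counts, with thinning to the smallest total and with the correction for length and GC content. It was 9 with DESeq2 in the paired design, 8 with limma-voom, 5 with at least 10 counts in every library, and 0 to 5 with 1 experiment left out (0 without experiment 1, 5 without experiment 2, 1 without experiment 3). The share of all genes called also differed between settings. It was 1.28% by the main test, 0.00728% without the replicate block, 1.45% with DESeq2 size factors, 1.44% with no filter and 2.07% with thinning. With the length and GC correction it was 1.26%, with DESeq2 12.3%, with limma-voom 9.91% and with at least 10 counts in every library 6.75%. Without experiment 1, 2 or 3 it was 0.254%, 5.37% and 1.59%. The number of other secretory genes called (5) was 0 without the replicate block, 50 with DESeq2, 44 with limma-voom, 29 with at least 10 counts in every library, 14 with no filter, 14 with thinning, 2 with the correction for length and GC content, and 0 to 22 with 1 experiment left out (0 without experiment 1, 22 without experiment 2, 10 without experiment 3). The COPII median (−0.12) was −0.060 without the replicate block, −0.018 with the length and GC correction, and −0.12 to 0.067 with 1 experiment left out. Medians of the other classes moved by less than the spread between experiments in every alternative run. Of the named genes' values under alternatives, 207 stayed on the same side of the threshold and 24 passed it in the same direction. The sign differed in 1 or 2 settings for *Hspa5*, *Xbp1*, *Creb3l1*, *Sec24d* and *Sar1b*, none of them called. The causes of these differences were not tested. Depth limits *Derl3* and *Ern1*, which had 0 and 16 counts in the shallowest library, and 3 pairs limit every test.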
